A study of Mus musculus with 3 samples.

Results

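A set of 10 genes of inhibitory and sialic acid receptors of myeloid cells was followed through the RNAseq data: *Siglec1*, *Cd33*, *Siglece*, *Pilra*, *Sirpa*, *Lilrb4*, *Cd300a*, *Cd200r1*, *Clec12a* and *Clec4a2*. They were chosen by name, and all 10 were found by their Ensembl identifiers among the 33506 genes with a value for every library. All 10 passed a minimum mean of 1 FPKM over the 3 libraries, a filter that left 11841 genes as the background. FPKM, a count of sequenced fragments divided by transcript length and library size, corrects for both, so levels can be compared between genes. All cells came from BALB/C mice carrying tumors of Renca, a mouse renal carcinoma line, grown inside the kidney with no further treatment given in the labels. The 3 libraries were labelled M1 (type-1 macrophages, sorted as F4/80 intermediate and CD11b high), M2 (type-2 macrophages, F4/80 high and CD11b intermediate) and CD4 (T cells, TCRβ+ and CD4+). Cells were pooled from 30 tumors and 4 spleens, and each cell subset had 1 library, so that no difference has a replicate check and no test was possible. The labels give both day 14 and day 16 after tumor injection, disagree on whether the CD4 T cells were splenic or from tumors, and give no age for the mice.

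The names of the libraries were checked with cell type genes before any receptor was examined. *Cd3e*, a chain of the T-cell CD3 complex, stood at 0.131 FPKM in the library labelled M1, 126 in that labelled M2 and 0.141 in that labelled CD4. All 14 T-cell genes found were highest in the library labelled M2, and their sum was 5.81, 1982 and 2.90 FPKM in the order M1, M2 and CD4. *Csf1r*, the receptor for macrophage colony stimulating factor, stood at 279, 15.3 and 519 FPKM in the order M1, M2 and CD4. *Emr1*, which encodes F4/80, stood at 45.3, 9.16 and 215 FPKM, and *Itgam*, which encodes CD11b, at 299, 14.7 and 201 FPKM. All 16 macrophage genes were lower in the library labelled M2 than in either other library. The levels of these genes therefore go against the labels M2 and CD4, and each library is called by its label throughout. Depth, estimated from the lowest values, was 58700000 to 60800000 fragments per library.

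Most of these receptors carry a tyrosine in their cytoplasmic part within an immunoreceptor tyrosine-based inhibitory motif, or ITIM. After phosphorylation by Src family kinases this motif recruits the phosphatases SHP-1, SHP-2 or SHIP-1, which dampen activating signals in macrophages, neutrophils and dendritic cells. Siglecs bind sialic acids, the acidic sugars at the ends of glycan chains, and the other receptors bind proteins, lipids or glycans on neighbouring cells. Many have a close relative that lacks the motif and signals through an activating adaptor such as DAP12 (*Tyrobp*) or the Fc receptor gamma chain (*Fcer1g*).

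To show which receptors have this motif, the reference coding sequences of the transcripts with a level were searched in frame, within the last 100 codons or, for the lectins *Clec12a* and *Clec4a2*, whose cytoplasmic part comes first, the first 40 codons. The set searched was a codon for serine, threonine, isoleucine, valine or leucine, any codon, a tyrosine codon, any 2 codons, and a codon for isoleucine, valine or leucine. It was found in 7 of the 10 genes. *Sirpa* had 4 such sets, *Lilrb4*, *Pilra*, *Cd300a* and *Siglece* had 2 each, and the lectins had 1 each. The first set of each gene is given here as coding-strand DNA of build NCBIM37, 18 bases long, with the tyrosine codon in capitals.
*Sirpa*, chr2:129455690-129455707, plus strand: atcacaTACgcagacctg
*Lilrb4*, chr10:51215827-51215844, plus strand: attgtcTACgcccaggta
*Pilra*, chr5:138264799-138264816, minus strand: atcgtgTATgcttccatc
*Cd300a*, chr11:114761160-114761177, plus strand: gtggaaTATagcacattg
*Siglece*, chr7:50906955-50906972, minus strand: atacatTATgcgaccctc
*Clec12a*, chr6:129300451-129300468, plus strand: attgttTATgcaaatctc
*Clec4a2*, chr6:123073618-123073635, plus strand: atcactTATgcagaagtg
In both lectins the tyrosine was codon 7. *Siglec1*, *Cd33* and *Cd200r1* had no such set in the last 100 codons. *Cd200r1* instead had 1 codon set for asparagine, proline, any residue and tyrosine, the kind of site through which its product binds Dok adaptors. It is 12 bases long and is given with the tyrosine codon, 297 of 326, in capitals.
*Cd200r1*, chr16:44794352-44794363, plus strand: aatccactcTAT

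The 10 receptors together amounted to 1139 FPKM in the library labelled M1, 786 in that labelled CD4 and 92.3 in that labelled M2. *Sirpa*, *Lilrb4* and *Clec4a2* made up 75.9% of this sum in the library labelled M1 and 71.5% in that labelled CD4. Under the row rule *Lilrb4* was the highest of the 10 in the library labelled M1 and *Sirpa* in both others. With all rows of a gene summed *Lilrb4* was the highest in the library labelled CD4 too, at 357 FPKM against 223 for *Sirpa*. In the library labelled M2 *Sirpa* alone made up 47.1% of the sum under the rule, followed by *Lilrb4* at 21.5% and *Cd200r1* at 9.86%, while with all rows *Cd200r1* (30.4 FPKM) and *Lilrb4* (29.5) changed places. With 1 library each there is no spread against which neighbours in these orders can be separated. In bulk RNA, fewer cells of a type and less RNA per cell cannot be told apart.

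**Figure D1:**
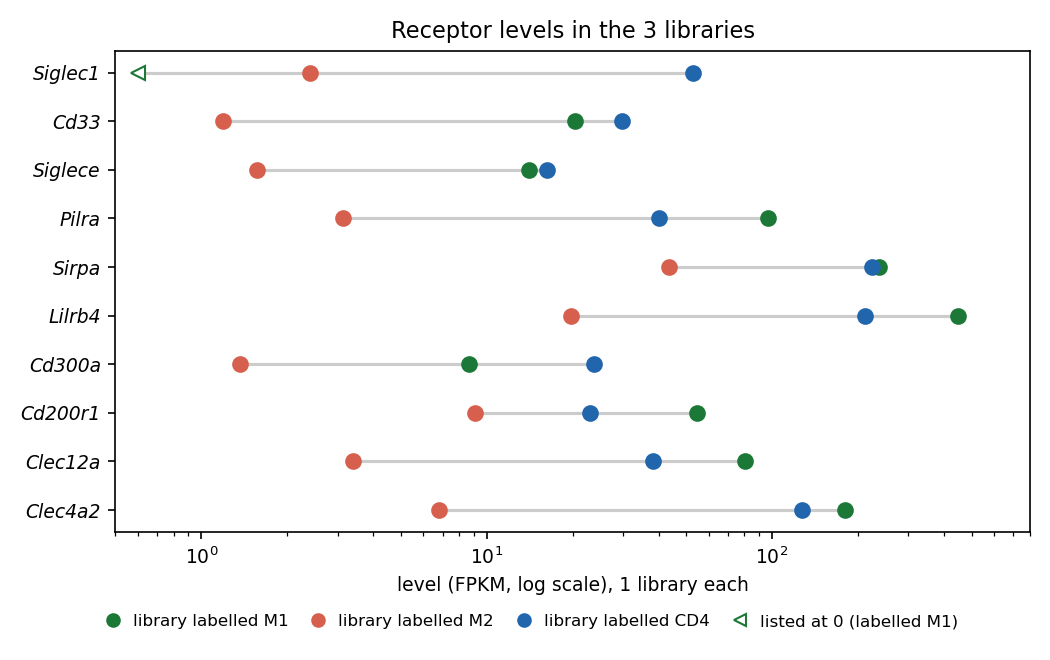
Level of each receptor in FPKM on a log axis, 1 point per library (green, labelled M1; red, labelled M2; blue, labelled CD4), with *Siglec1* listed at 0 in the library labelled M1 drawn as an open triangle. For 9 of the 10 receptors the library labelled M2 has the lowest point, and the exception is *Siglec1*.

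Among the siglecs, *Siglec1* (ENSMUSG00000027322, chr2:130894956-130912501, minus strand) encodes sialoadhesin, an adhesion receptor of tissue macrophages with a long extracellular part. Its level was 0 in the library labelled M1, 2.40 FPKM in that labelled M2 and 52.8 in that labelled CD4. The 0 concerns the first complete row of its identifiers, and other rows of the same gene held 10.8 FPKM in the library labelled M1. With all rows summed the levels were 10.8, 3.12 and 126 FPKM in the order M1, M2 and CD4. The library labelled CD4 was thus the highest by either count, and the order of the other libraries turned with the rows used.

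*Cd33* (ENSMUSG00000004609, chr7:50782826-50788541, minus strand), a small siglec of myeloid cells, stood at 20.5 FPKM in the library labelled M1, 1.19 in that labelled M2 and 29.7 in that labelled CD4. *Siglece* (ENSMUSG00000030474, chr7:50906440-50915531, minus strand), the main ITIM-bearing siglec of mouse neutrophils and macrophages, stood at 14.0, 1.57 and 16.3 FPKM in the same order. These neighbours on chromosome 7, 118 kb apart, thus had similar profiles, with levels in the libraries labelled M1 and CD4 within 1.45-fold of each other and a lower level in that labelled M2. The lowest levels, both in the library labelled M2, corresponded to an estimated 174 fragments for *Cd33* and 169.9 for *Siglece*. The level of *Cd33* under the rule belonged to the transcript ENSMUST00000039861, of 334 codons. The longer ENSMUST00000004728, of 403 codons, was at 0 there and held 19.7, 4.27 and 30.1 FPKM in its other rows, in the order M1, M2 and CD4. Neither transcript holds the ITIM set in its last 100 codons.

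*Pilra* (ENSMUSG00000046245, chr5:138263180-138277506, minus strand), a paired receptor that binds sialylated O-glycans on proteins such as PIANP, stood at 96.4 FPKM in the library labelled M1, 3.15 in that labelled M2 and 40.2 in that labelled CD4. The library labelled M1 was 2.40-fold above that labelled CD4 and 30.6-fold above that labelled M2, the largest of the 9 ratios between M1 and M2 that could be formed under the row rule. With all rows summed it was 21.6-fold, below 37.8-fold for *Clec4a2* and 26.3-fold for *Lilrb4*. Of all 51-base stretches of its transcript, the length of a read, 23.2% also occur in coding transcripts of other genes, of which 16.6% are shared with *Zcwpw1* and 4.11% with *Pilrb1*. Its level may therefore hold reads of these genes, which was not tested.

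*Sirpa* (ENSMUSG00000037902, chr2:129418571-129457964, plus strand), the receptor for the "do not eat me" signal CD47, stood at 237 FPKM in the library labelled M1, 43.5 in that labelled M2 and 223 in that labelled CD4. The libraries labelled M1 and CD4 differed by 1.06-fold, and both ranked *Sirpa* at the 99.0th percentile of genes with a level. Even in the library labelled M2 it was at the 93.4th percentile. All 13 rows of the gene entered its level, and none of its 51-base stretches occurs in another coding gene. Transcript Sirpa-001 took 82.6%, 79.2% and 81.8% of the level in the order M1, M2 and CD4. The shorter Sirpa-201, with 295 codons in place of 509 and the same 4 motif sets, took the remainder in every library.

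*Lilrb4* (ENSMUSG00000062593, chr10:51200446-51216419, plus strand), also called gp49B, an inhibitory immunoglobulin-like receptor that binds integrin αvβ3, stood at 447 FPKM in the library labelled M1, 19.8 in that labelled M2 and 211 in that labelled CD4. It was 2.11-fold higher in the library labelled M1 than in that labelled CD4. This level is that of transcript Lilrb4-201, and Lilrb4-001, which encodes the same number of codons and the same motif sets, held 328, 9.67 and 145.9 FPKM in rows outside the rule. Of the 51-base stretches of Lilrb4-201, 26.9% are shared with *Gp49a*, the neighbouring activating relative. *Gp49a* was listed at 0 in all 3 libraries by the same row rule, and other rows held 8.23 FPKM in the library labelled M2 and 60.1 in that labelled CD4, so that the split between these genes is uncertain.

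*Cd300a* (ENSMUSG00000034652, chr11:114751355-114765968, plus strand), a receptor for phosphatidylserine and phosphatidylethanolamine on dying cells, went the other way between the libraries labelled M1 and CD4. It stood at 8.66 FPKM in the library labelled M1, 1.37 in that labelled M2 and 23.8 in that labelled CD4. The library labelled CD4 was 2.74-fold above that labelled M1 and 17.4-fold above that labelled M2. Transcript Cd300a-001 stood at 6.12, 1.37 and 20.9 FPKM in the order M1, M2 and CD4, while Cd300a-002 was 2.54 and 2.85 FPKM in the libraries labelled M1 and CD4 and listed at 0 in that labelled M2. By these listed levels the difference between the libraries labelled M1 and CD4 lay mostly in Cd300a-001. The transcripts are of similar length, 4645 and 4633 bases, and the split of fragments between them is a model estimate that was not tested.

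*Cd200r1* (ENSMUSG00000022667, chr16:44765849-44795091, plus strand), the receptor for CD200, stood at 54.7 FPKM in the library labelled M1, 9.11 in that labelled M2 and 23.1 in that labelled CD4. Its level in the library labelled M2 was 39.4% of that labelled CD4, the highest share of the 10 receptors. The rows outside the rule held 21.3 FPKM in the library labelled M2, 70.0% of its sum there. With all rows summed the levels were 71.1, 30.4 and 26.6 FPKM, and the library labelled M2 was no longer below that labelled CD4. All of these further levels belonged to the transcript Cd200r1-201, which is longer than Cd200r1-003 but encodes fewer codons, 135 against 326. Under the rule Cd200r1-201 was listed at 0 in the library labelled M1 and took 22.9% of the level in that labelled M2 and 12.2% in that labelled CD4. With all rows it stood at 16.4, 23.4 and 6.32 FPKM in the order M1, M2 and CD4, which is 23.1%, 76.9% and 23.8% of the gene.

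The C-type lectins lie on chromosome 6. *Clec12a* (ENSMUSG00000053063, chr6:129292709-129315321, plus strand), which recognises uric acid crystals, stood at 80.3 FPKM in the library labelled M1, 3.41 in that labelled M2 and 38.3 in that labelled CD4. *Clec4a2* (ENSMUSG00000030148, chr6:123056446-123094017, plus strand), also called DCIR, stood at 180.4 FPKM in the library labelled M1, 6.83 in that labelled M2 and 127 in that labelled CD4. Both were thus highest in the library labelled M1, by 2.095-fold over that labelled CD4 for *Clec12a* and 1.42-fold for *Clec4a2*. Transcript Clec12a-003, whose annotation has no stop codon, was listed at 0 in the library labelled M1 and took 27.1% and 29.4% of the *Clec12a* level in those labelled M2 and CD4. Without it, Clec12a-001 stood at 80.3, 2.49 and 27.1 FPKM. With the rows outside the rule, Clec12a-003 stood at 3.81 FPKM in the library labelled M2, 60.5% of the gene's 6.30 FPKM there, which is 1.85 times the level under the rule. For *Clec4a2*, transcript Clec4a2-003 took 55.8% to 65.2% of the level under the rule in each library. With all rows summed Clec4a2-002 passed it in the library labelled M1, at 141 against 100.6 FPKM, and in that labelled CD4, at 130.4 against 77.3, but not in that labelled M2. Of the 51-base stretches of Clec4a2-003, 19.5% are shared with other genes, 13.02% with *Clec4a4*.

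Differences were next counted on the log2(FPKM + 1) scale, which understates the change of low genes, and a difference of at least 1 was called. The 3 comparisons share libraries, since each library enters 2 of them, and so are not independent. Between the libraries labelled CD4 and M1, 2 of the 10 receptors were higher in that labelled CD4, *Siglec1* and *Cd300a*, beside 6.17% of the background genes. *Lilrb4*, *Pilra*, *Cd200r1* and *Clec12a* were lower in the library labelled CD4, 4 of 10 beside 6.4% of the background. *Sirpa*, *Clec4a2*, *Cd33* and *Siglece* lay between these limits, with differences of -0.08, -0.50, 0.52 and 0.21. The median was -0.29 over the receptors and -0.01 over the background. The 4 lower receptors were close to the limit, from -1.24 for *Pilra* to -1.05 for *Clec12a*, while *Cd300a* stood at 1.36. *Siglec1* stood at 5.75 against its listed 0 and at 3.42 with all rows summed.

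Between the libraries labelled M2 and M1, 9 of 10 receptors were lower in that labelled M2, beside 14.4% of the background genes, with differences from -4.55 for *Pilra* to -2.03 for *Cd300a*. The remaining gene, *Siglec1*, was counted as higher against its listed 0, 1 of 10 beside 15.5% of the background, and turned to -1.52 with all rows summed. The median was -2.92 over the receptors and 0.07 over the background. Between the libraries labelled M2 and CD4, all 10 receptors were lower in that labelled M2, beside 15.2% of the background, and 0 were higher, beside 15.9%. Here the median was -3.33 against 0.09 in the background, and the differences ran from -4.03 for *Clec4a2* to -1.25 for *Cd200r1*. The last of these became 0.19 with all rows summed, which left 9 receptors lower.

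**Figure D2:**
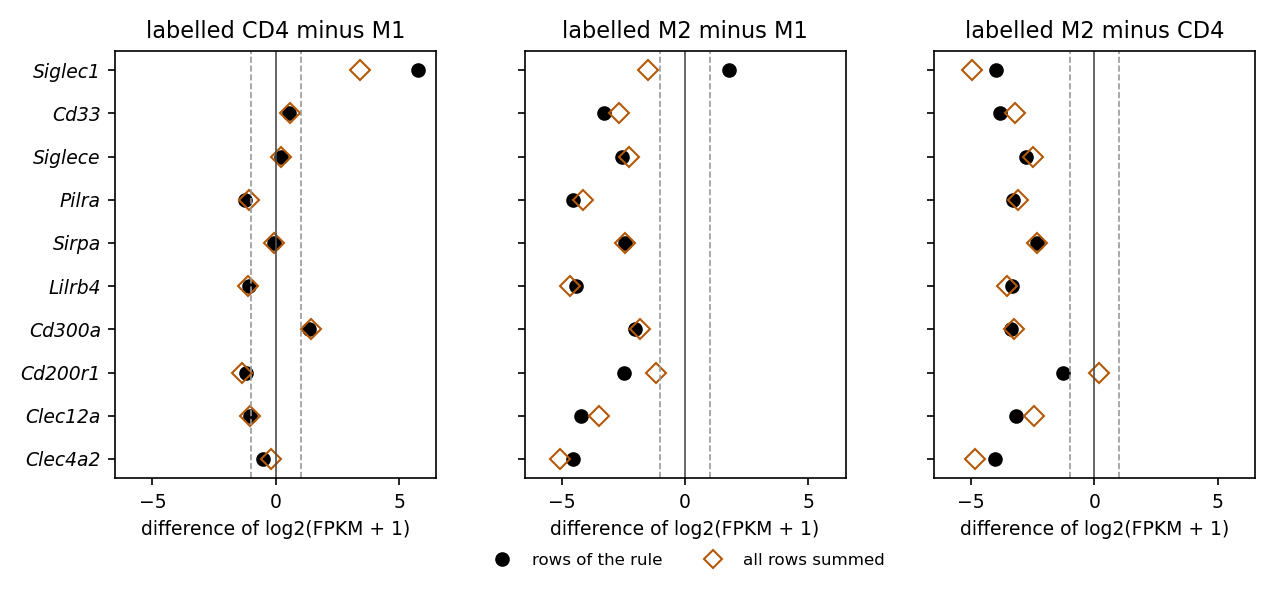
Difference of log2(FPKM + 1) for each receptor in the 3 comparisons, from the rows of the rule (black points) and from all rows summed (open diamonds), with dashed lines at a difference of 1 in either direction. The symbols lie on the same side of 0 except for *Siglec1* between M2 and M1 (1.77 and -1.52) and *Cd200r1* between M2 and CD4 (-1.25 and 0.19).

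The share of a receptor's level that the row rule left out was uneven. Of 79 rows of these genes 44 were used. Of the 35 others 33 had a dash in place of a value for at least 1 library, and 19 had a value for the library labelled M2 alone, so that these rows cannot be set against each other 1 by 1. *Sirpa* had no other rows. For *Lilrb4* 42.3%, 32.8% and 40.8% of the sum over all rows lay outside the rule in the order M1, M2 and CD4, a similar share in each library. For *Clec4a2* this share was 30.2% in the library labelled M1 and 43.0% in that labelled CD4, but 0 in that labelled M2. For *Cd33* it was 49.1%, 78.2% and 50.3%.

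**Figure D3:**
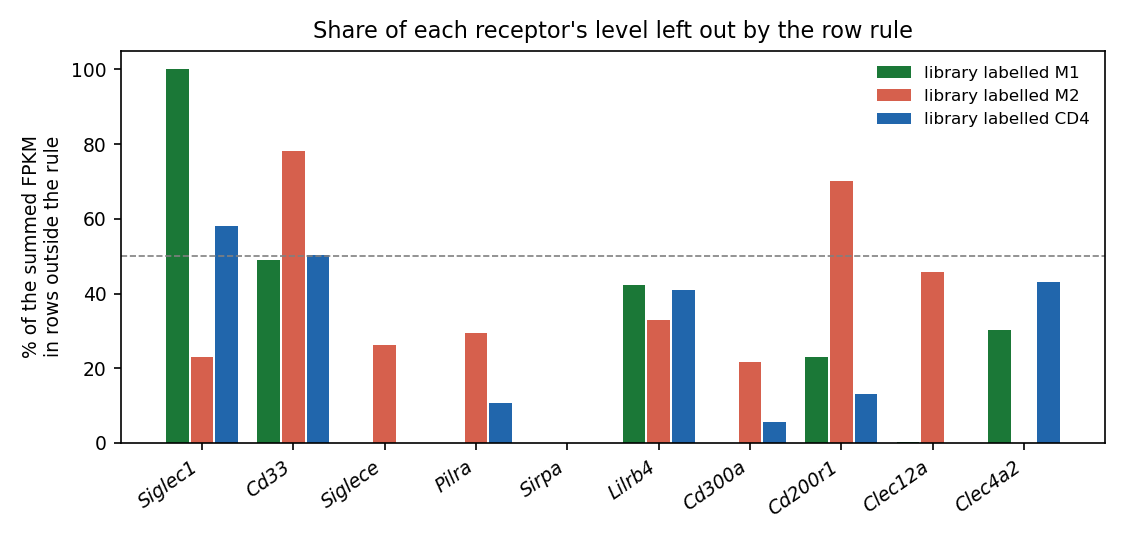
Percent of each receptor's summed FPKM that lies in rows outside the rule, per library, with a dashed line at 50%. *Siglec1* in the library labelled M1 (100%) and *Cd33* (78.2%) and *Cd200r1* (70.0%) in that labelled M2 have the tallest bars, and *Sirpa* has none.

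The macrophage genes, like most of the receptors, were lowest in the library labelled M2 and are given beside the receptors. As a percent of the library labelled CD4, the level in that labelled M2 ran from 1.68% for *Cd163* to 17.9% for *Cd14* over the 16 macrophage genes, with a median of 4.60%. Over the receptors it ran from 4.00% for *Cd33* to 39.4% for *Cd200r1*, with a median of 8.37%. *Cd200r1* and *Sirpa* (19.5%) were above all 16 macrophage genes under the row rule and the other 8 receptors were within their range. The macrophage genes summed to 8869, 698 and 13893 FPKM in the order M1, M2 and CD4. Between the libraries labelled CD4 and M1 their median difference was 0.78, beside -0.29 over the receptors. Of the macrophage genes 6 were higher and 0 lower in that labelled CD4, beside 6.17% and 6.4% of the background genes. Of 8 monocyte genes 2 were higher and 6 lower in that labelled CD4. Of these 2, *Ly6c1* was higher against a listed 0. With all rows summed it stood at 49.3 FPKM in the library labelled M1 and 4.95 in that labelled CD4. *Ccr2*, the chemokine receptor of inflammatory monocytes, stood at 526, 23.1 and 183 FPKM and *F13a1*, which encodes a chain of coagulation factor XIII, at 54.3, 13.7 and 378. Among 13 neutrophil genes, 5 were higher and 2 lower in the library labelled M2 than in that labelled M1, beside 15.5% and 14.4% of the background. *S100a8* and *S100a9* were highest in the library labelled M2, at 84.5 and 109.7 FPKM. The 2 lower genes were *Csf3r*, at 19.7, 8.40 and 25.3 FPKM under the row rule, and *Mmp8*, at 15.9, 1.08 and 1.38. Summed neutrophil genes stood at 94.3, 250 and 39.0 FPKM. Dendritic cell genes summed to 173, 155 and 42.5 FPKM, and their members went different ways. *Itgax*, which encodes CD11c, stood at 124, 5.30 and 29.5 FPKM, while *Ccr7*, a homing receptor that naive T cells also carry, stood at 6.44, 121.9 and 0.464. B-cell genes summed to 1.59, 62.9 and 11.9 FPKM, CD8 and NK cell genes to 6.21, 19.9 and 1.32, and eosinophil and mast cell genes to 1.45, 1.63 and 0.671. Kidney epithelium genes summed to 118, 198 and 95.2 FPKM, and these too went different ways. *Cdh16* stood at 33.4, 87.8 and 46.0 FPKM and *Cdh1* at 48.2, 6.69 and 3.84. The part of any of these cells in the receptor levels was not tested.

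**Figure D4:**
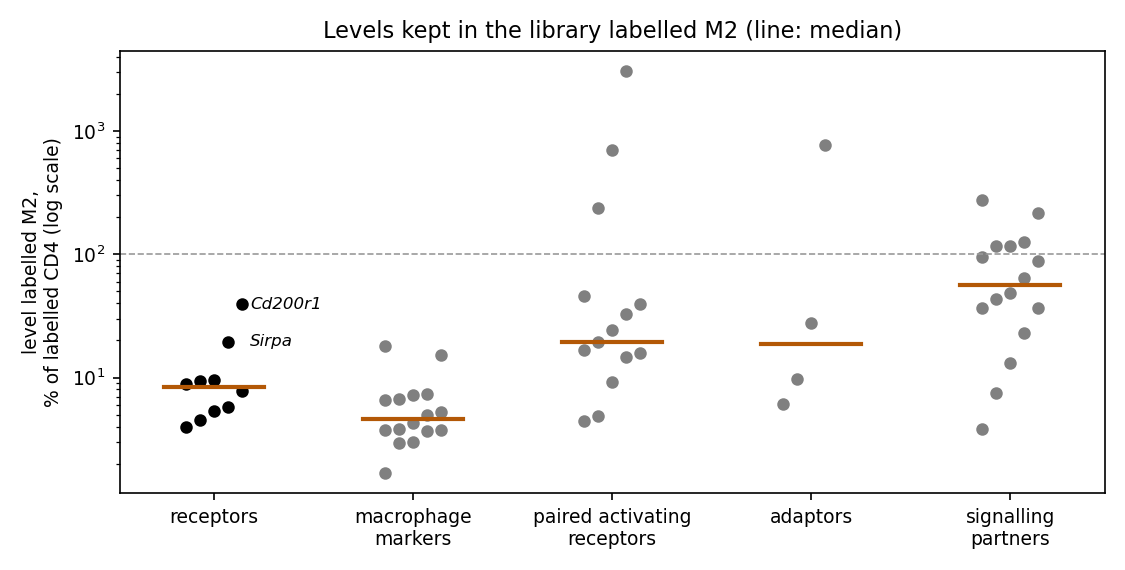
Level in the library labelled M2 as a percent of that labelled CD4 on a log axis, 1 point per gene, for the receptors, macrophage markers, paired activating receptors, adaptors and signalling partners, with orange lines at the medians and a dashed line at 100%. *Pilrb2*, at 0 in the library labelled M2, and *Gp49a*, at 0 in both, are not drawn, and the medians of the receptors and macrophage markers are 8.37% and 4.60%.

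The activating relatives of these receptors were examined next. Of 16 paired activating receptors found, 9 were lower in the library labelled CD4 than in that labelled M1 and 1 was higher, beside 6.4% and 6.17% of the background genes, with a median difference of -1.31. *Sirpb1a*, a DAP12-coupled relative of *Sirpa*, stood at 48.2, 1.94 and 13.3 FPKM in the order M1, M2 and CD4, a difference of -1.78 between CD4 and M1 beside -0.08 for *Sirpa*. *Pilrb1* stood at 26.8, 1.11 and 6.61 FPKM and *Pilrb2* at 34.1, 0 and 10.2, with differences of -1.87 and -1.65 beside -1.24 for *Pilra*. For both pairs the activating gene thus differed more than the inhibitory one between these libraries. This did not hold for *Cd300lb* (-0.89) and *Cd300ld* (-0.67) beside *Cd300a* (1.36). On the log2(FPKM + 1) scale it did not hold for *Cd200r3* (-1.14) beside *Cd200r1* (-1.21) either. But *Cd200r3* was low, at 1.33 FPKM in the library labelled M1 and 0.0566 in that labelled CD4. As a plain ratio it differed more, by 23.5-fold beside 2.37-fold for *Cd200r1*. *Clec4n*, which encodes the fungal receptor Dectin-2, stood at 386, 15.9 and 330 FPKM, and *Clec4e*, which encodes Mincle, at 29.5, 0.805 and 4.11. The gene that was higher in the library labelled CD4 was *Trem2*, a lipid receptor of macrophages, at 47.7, 5.74 and 129 FPKM. Of the 4 adaptor genes 0 were called between these libraries. *Tyrobp* stood at 688 and 700 FPKM in those labelled M1 and CD4, against 68.0 in that labelled M2, and *Fcer1g* at 498 and 530 against 32.3. *Hcst*, which encodes the adaptor DAP10 that T cells also use, went the other way with 49.2 FPKM in the library labelled M2 against 6.27 and 6.38.

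Of 13 other inhibitory myeloid receptors, 1 was higher and 3 lower in the library labelled CD4 than in that labelled M1, beside 6.17% and 6.4% of the background genes. Between M2 and M1 1 was higher and 8 lower, beside 15.5% and 14.4%, and between M2 and CD4 1 was higher and 9 lower, beside 15.9% and 15.2%. The higher gene was in both cases *Pecam1*, an adhesion receptor of leukocytes and endothelium, at 1.80, 35.03 and 1.42 FPKM. *Fcgr2b*, the inhibitory Fc receptor, stood at 610, 37.6 and 781 FPKM, above every receptor of the 10 in the libraries labelled M1 and CD4. With all rows summed it stood at 4431, 43.6 and 842 FPKM, so that the order of the libraries labelled M1 and CD4 turned with the rows used. *Lilrb3*, also called Pirb, stood at 92.2, 7.43 and 75.1 FPKM, and the DCIR relatives *Clec4a1* and *Clec4a3* at 57.8, 4.00 and 65.1 and at 91.9, 5.51 and 103. *Cd300lf* differed between the libraries labelled M1 and CD4 in the opposite sense to *Cd300a*, with 60.4 and 14.8 FPKM. The 6 other siglecs summed to 4.44, 32.5 and 16.0 FPKM. Of these *Siglech*, a marker of plasmacytoid dendritic cells, was 0.286, 13.2 and 0.28 and the B-cell receptor *Cd22* was 1.15, 10.98 and 11.3. With all rows summed *Siglech* stood at 49.8 FPKM in the library labelled M2, above the 43.5 of *Sirpa*, the highest of the 10 receptors there.

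The phosphatases, kinases and adaptors that act behind these receptors were compared in the same way. Of 16 signalling partners, 0 were higher and 2 lower in the library labelled CD4 than in that labelled M1, beside 6.17% and 6.4% of the background genes, with a median difference of 0.00. In the library labelled M2, 8 were lower than in each other library, beside 14.4% of the background against M1 and 15.2% against CD4, and 1 and 2 were higher, beside 15.5% and 15.9%, with medians of -1.07 against M1 and -0.83 against CD4. *Ptpn6*, which encodes SHP-1, stood at 130.1, 81.8 and 129 FPKM, so that its level in the library labelled M2 was 63.6% of that labelled CD4. *Dok2*, the adaptor that binds CD200R, stood at 145, 59.6 and 63.2 FPKM. *Lyn*, a Src family kinase that phosphorylates ITIMs, stood at 118, 15.2 and 117 FPKM. *Skap2*, an adaptor that binds SIRPα, stood at 105.2, 3.68 and 96.4 FPKM. *Fyb*, an adaptor of T cells and macrophages, was highest under the row rule in the library labelled M2 at 93.5 against 28.2 and 33.8. With all rows summed *Fyb* stood at 48.6, 100.2 and 94.1 FPKM in the order M1, M2 and CD4, so that the libraries labelled M2 and CD4 were close.

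Of 11 ligand genes found, 4 stood higher between M2 and CD4, beside 15.9% of the background genes, and 1 lower, beside 15.2%, with a median difference of 0.45. *Cd47*, the ligand of SIRPα, stood at 60.8, 82.2 and 51.7 FPKM in the order M1, M2 and CD4. *Cd200*, the ligand of CD200R, stood at 0.285, 3.41 and 0.565 FPKM. *Spn*, which encodes the sialylated T-cell protein CD43 that Siglec-1 binds, stood at 11.4, 85.8 and 6.003 FPKM. *Itgb3* and *Itgav* are the genes of integrin αvβ3, which the product of *Lilrb4* binds. *Itgb3* stood at 0.466, 13.55 and 0.255 FPKM and *Itgav* at 9.74, 8.81 and 11.98. *Cd47*, *Cd200*, *Spn* and *Itgb3* were thus highest in the library labelled M2, in which 9 of the 10 receptors were lowest. For *Cd47* the difference was below the limit of 1, at 0.43 against M1 and 0.66 against CD4. *Itgav* was lowest in the library labelled M2. *Thbs1*, which encodes the CD47-binding protein thrombospondin-1, was highest in that labelled M1 at 59.3 against 6.63 and 11.5. *C530028O21Rik*, the gene of PIANP, stood at 31.9, 11.97 and 38.5 FPKM.

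Among genes that make, attach and remove sialic acid, 1 of 9 synthesis and transport genes was higher and 1 lower in the library labelled CD4 than in that labelled M1, 1 of 17 sialyltransferases was higher and 3 lower, and 0 of 4 sialidase genes were called, beside 6.17% of the background genes higher and 6.4% lower. Of the 3 lower sialyltransferases *St3gal2* was so against a listed 0. *Npl*, the lyase that breaks down free sialic acid, was the higher synthesis and transport gene, with 6.40 FPKM in the library labelled M1, 3.74 in that labelled M2 and 100.1 in that labelled CD4. *Nans*, a synthase of the pathway, had a listed 0 in the library labelled CD4 against 37.6 and 8.62 FPKM, also with all rows summed. *Cmah*, the hydroxylase that makes the glycolyl form of sialic acid that several mouse siglecs bind, stood at 0.169, 19.2 and 1.04 FPKM. *St6gal1*, which makes the linkage that CD22 binds, stood at 4.39, 15.9 and 6.37 FPKM. *Ctsa*, which protects the lysosomal sialidase Neu1, stood at 270.4, 104 and 473 FPKM, and *Neu1* itself at 25.2, 23.5 and 37.0.

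**Figure D5:**
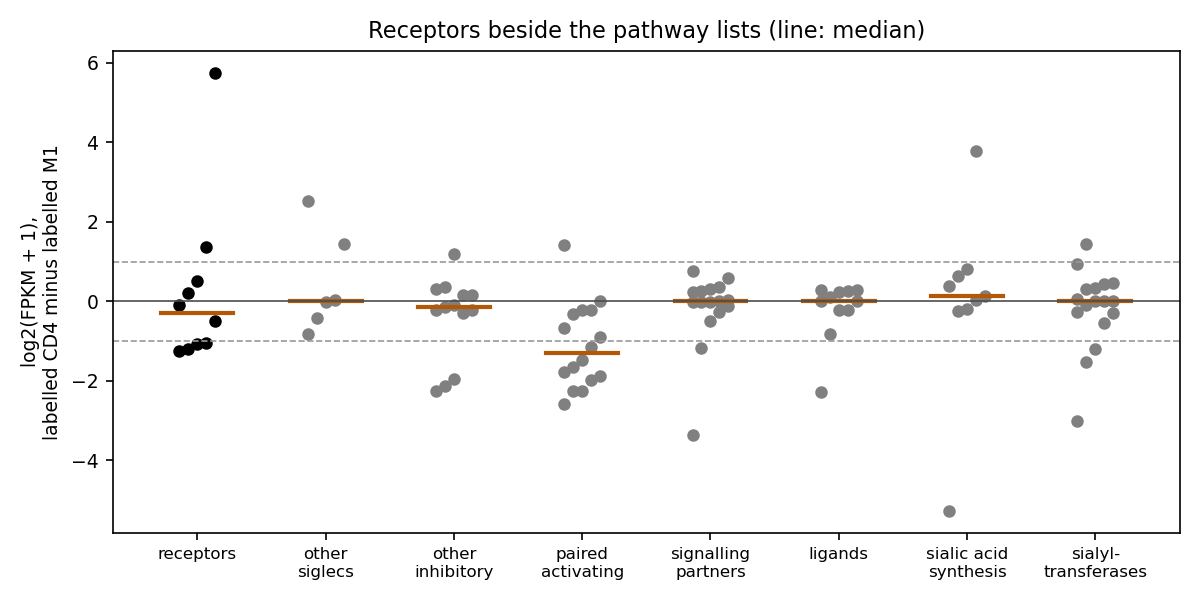
Difference of log2(FPKM + 1) between the libraries labelled CD4 and M1, 1 point per gene, for the 10 receptors (black) and the lists of related genes (grey), with orange lines at the medians and dashed lines at a difference of 1 in either direction. The median is -1.31 for the paired activating receptors and -0.29 for the 10 receptors, whose highest point is *Siglec1* against a listed 0.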

How the data were processed

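The authors used TopHat 1.4.1 with Bowtie 0.12.8 to align the paired 51-base reads to MM9, and Cufflinks 2.1.0 with Ensembl release 67 as guide for the transcripts. The deposited values are FPKM per transcript, in 1 table with a column per library, and the labels also name Cuffdiff. How the 3 assemblies were joined is not given in the sources used here. Cufflinks shares fragments between overlapping transcripts by a model, so levels of single transcripts and of near-identical genes are less certain than gene sums.

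Of 135070 rows, those with an identifier were looked up in the GENCODE annotation of NCBIM37 (the same build), and 90316 of 92519 identifiers matched. For each identifier the first row with a value in all 3 columns was taken, and rows were summed per gene. Columns were assigned by their headings. Differences were taken on log2(FPKM + 1), a difference of at least 1 was called, and no p-value is given, since each subset had 1 library. Depth was taken from the commonest of the lowest products of FPKM and length, the level of 1 fragment, in transcripts of 2500 to 8000 bases. With other length ranges it reached 77400000 for the library labelled CD4. The intervals that depth gives would cover counting error only.

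The 10 receptors, the 18 gene lists (9 of cell types and 9 of related genes) and the comparisons were chosen with earlier results of these data known. The genes named were the receptors, their transcripts with at least 10% of the gene's level in any library, up to 6 genes per list with the highest level of at least 10 FPKM, and the adaptors, ligands and close relatives of the receptors. *Cd163* and *Cd14*, the ends of a range, and *Pecam1* and *St3gal2* are named outside this rule, after their values were seen. Of 194 list entries 191 were found. Motifs and shared stretches were read from the reference transcripts of NCBIM37. Alternatives were a pseudocount of 0.1 FPKM, all rows summed, the highest row per identifier, median ratio scaling, protein-coding transcripts only and, for the background, no filter. The calculations were tested on simulated data and used Python 3.11.15, numpy 2.4.6, pandas 2.3.3 and matplotlib 3.10.9.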

Additional observations from a re-analysis of the deposited data

Results flagged for a closer look

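Levels in rows that the row rule did not use were looked at for every receptor, since they are part of the same table. *Siglec1* held 10.8 FPKM in such rows in the library labelled M1, where its level under the rule was listed at 0, and 72.8 FPKM in that labelled CD4. For *Cd200r1* the unused rows held 21.3 FPKM in the library labelled M2. For *Cd33* they held 4.27 FPKM in the library labelled M2 and 30.1 FPKM in that labelled CD4, more than its rows under the rule. *Gp49a*, the close relative of *Lilrb4*, was listed at 0 under the rule in all 3 libraries and held 8.23 FPKM in the library labelled M2 and 60.1 FPKM in that labelled CD4 in unused rows. Of the 35 unused rows of the receptors 33 lacked a value for at least 1 library. Why the table repeats an identifier was not tested.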

How the results depend on the processing

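Of 150 receptor differences computed under 5 alternatives, 148 kept their direction or their place and 2 reversed, both with all rows of a gene summed: *Siglec1* between M2 and M1 became -1.52 and *Cd200r1* between M2 and CD4 became 0.19. In that setting 0 receptors in place of 1 were higher between M2 and M1. The other counts of receptors stayed within 1.5 times. The median difference ranged from -0.30 to -0.15 between CD4 and M1, from -3.54 to -2.54 between M2 and M1 and from -3.54 to -3.16 between M2 and CD4. Median ratio scaling divided the columns by 0.995 (M1), 1.024 (M2) and 0.979 (CD4). Without the filter on low values the background shares were 2.42% higher and 2.49% lower between CD4 and M1, 6.27% and 5.38% between M2 and M1, and 6.40% and 5.68% between M2 and CD4. No paired analysis was possible because no subset was sequenced in more than 1 library, and no replicate could be left out. With 1 library per subset the spread between animals and between sorts is unknown.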
